A study of Homo sapiens with 2 samples.

Results

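The genes of cyclic nucleotide turnover were compared in TFK1 cells: the phosphodiesterases, the adenylyl cyclases and the subunits of protein kinase A (PKA). Members were found by their symbol alone, as a PDE gene with a family number and a letter, an ADCY gene with a number, or PRKACA, PRKACB, PRKAR1A, PRKAR1B, PRKAR2A or PRKAR2B, with 1 row kept per symbol. This gave 40 of the 56638 genes measured, of which 24 were phosphodiesterases, 10 adenylyl cyclases and 6 PKA subunits. TFK1 is an established human cholangiocarcinoma cell line. One library came from TFK1 cells whose MBD2, a protein that binds methylated CpG sites, was knocked down with an shRNA (shMBD2), and the other from TFK1 cells with a negative control shRNA (shNC). In both, the shRNA was delivered by lentivirus, infected cells were selected with a drug, and the labels give no further treatment. The knockdown was represented by 1 shRNA and each group by 1 library, so no difference given here has a replicate check and no p-value can be given.

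Adenylyl cyclases make cyclic AMP from ATP, most of them under the control of G protein-coupled receptors, and phosphodiesterases break down cyclic AMP, cyclic GMP or both. PKA is held inactive by its regulatory subunits, which release the catalytic subunits when they bind cyclic AMP. In bile duct epithelium, cyclic AMP is known for driving secretion of chloride and bicarbonate and for controlling proliferation.

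The libraries held 14728814 counts in shMBD2 and 14467406 in shNC. Values are given as reads counted on a gene, as TPM (the deposited unit that scales by gene length), and as log2FC of shMBD2 over shNC after TMM scaling. Each log2FC comes with a 95% interval, by the exact Clopper-Pearson method, for how the reads of a gene were split between the libraries, and it covers counting error only. MBD2 had 365 counts in shMBD2 and 1013 in shNC, which left it at 35.8% of its shNC level. The biliary keratins KRT8 (49193 and 62047 counts in shMBD2 and shNC) and KRT7 (11632 and 12975 counts) were abundant, whereas KRT19 had only 119 and 70 counts. Among markers of other cell types, the summed level of 7 leukocyte markers was 4.58 TPM in shMBD2 and 1.99 TPM in shNC, with PTPRC at 0 and 1 counts and CD3E and CD52 at 0 in both. This sum came mostly from LAPTM5 (29 and 3 counts) and CD74 (22 and 13 counts). The summed level of 6 fibroblast markers was 8.42 and 3.98 TPM, nearly all from COL1A1 (308 and 124 counts), while COL1A2 had 0 and 1 counts and DCN had 1 in each. Summed levels were 2.76 and 1.02 TPM for 5 hepatocyte markers, mostly from SERPINA1 (39 and 11 counts) with ALB at 3 and 0 counts and TTR at 0 in both, and 1.02 and 0.624 TPM for 4 muscle markers, with MYH7 at 0 in both, TTN at 248 and 331 counts, DES at 5 and 1 and ACTA1 at 2 and 0. Neuronal markers were present, at 72.8 and 81.5 TPM over 4 genes, although STMN2 had 0 counts in both libraries. The part of these markers in the results was not tested.

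Most members were lower in shMBD2 than in shNC. In bulk RNA, fewer cells of a type and less RNA per cell cannot be told apart. Of the 40 members, 34 had at least 10 counts over both libraries, the minimum used for a log2FC, and 29 of these 34 had a negative log2FC, that is 85.3% against 51.1% of all 17545 genes with as many counts. Their median log2FC was -0.25, beside -0.01 over all those genes. A log2FC below -1 was seen for 5 members (PDE1A, PDE1C, PDE5A, PDE6C and ADCY5), or 14.7%, where 5.07% of all genes lay there. With log2 of TPM plus 1 this count was 1 (1.94% of all genes), and with a minimum of 100 counts it was 2 (1.06%). A minimum of 1 count gave 7 (15.8%). No member was above 1, a range that held 5.48% of all genes. The interval lay wholly below 0 for 17 members, against a background of 18.4% of genes, and wholly above 0 for 2 members, PDE4B and PDE11A, against 19.7%. PDE1C and ADCY5 are among the genes that the study displayed from these same libraries, so their values are a description. Without both, 3 of 32 members were below -1 and 15 had an interval below 0, an alternative chosen after seeing the data.

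**Figure D1:**
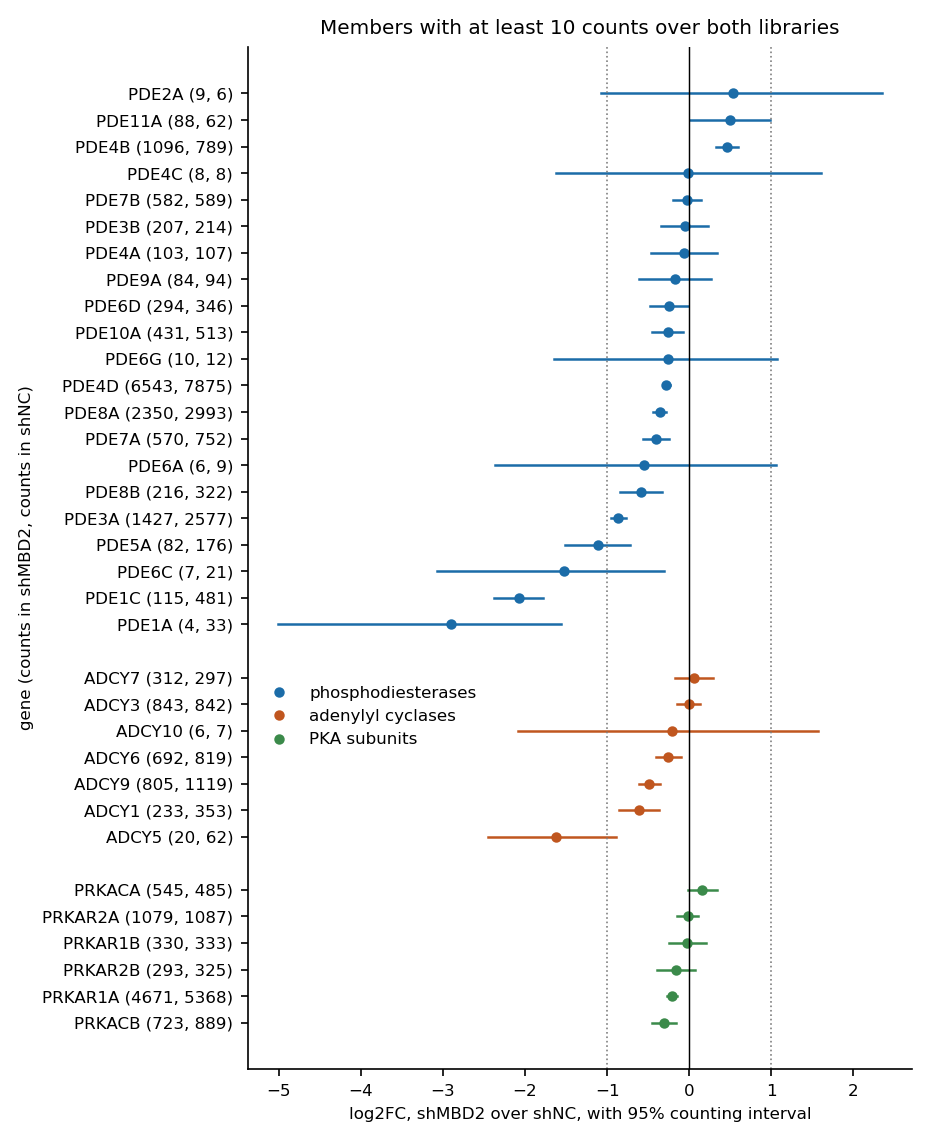
Log2FC of shMBD2 over shNC (x axis) for the 34 members with at least 10 counts, 1 row per gene with its counts in shMBD2 and shNC. Points are the log2FC, bars the 95% counting interval, dotted lines -1 and 1, and 5 points lie left of -1 while none lies right of 1.

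Few reads make large ratios common, so the members were also read at matched depth. In the range from 10 to under 100 counts over both libraries, 3 of 8 members were below -1 (PDE1A, PDE6C and ADCY5), where 13.7% of all genes in that range were. Among genes with at least 1000 counts, 8 of 13 members had an interval wholly below 0, against 26.8% of all genes that deep, and 1 (PDE4B) had an interval wholly above 0, against 30.4%. In between, at 100 to under 1000 counts, 2 of 13 members (PDE1C and PDE5A) were below -1, against 1.72% of all genes in that range, and 6 of 13 had an interval wholly below 0, against 18.9%. The 6 members without a log2FC were PDE1B, PDE6B, PDE6H and ADCY2, with 0 counts in both libraries, ADCY8 with 0 counts in shMBD2 and 1 in shNC, and ADCY4 with 0 and 2 counts. A count of 0 allows up to 3 counts, or 0.204 CPM in shMBD2 and 0.207 CPM in shNC (counts scaled to the library total), so the 4 genes with 0 counts in both were not detectable at this depth, and ADCY8 and ADCY4 had too few reads for a comparison.

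**Figure D2:**
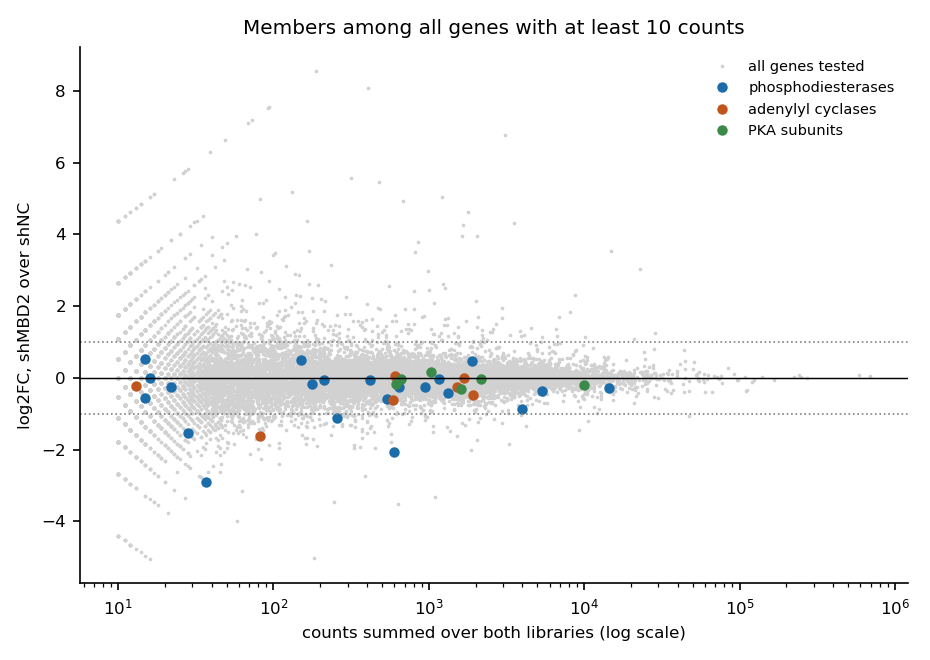
Log2FC of shMBD2 over shNC (y axis) against the counts summed over both libraries (x axis, log scale) for all 17545 genes with at least 10 counts (grey) and the 34 members (colored by class). The spread of all genes narrows with depth, and PDE1C and PDE3A sit at the lower edge of genes of like depth.

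The phosphodiesterases were lower as a class. Their 24 genes summed to 14232 counts in shMBD2 and 17979 in shNC, or 430.7 and 545.0 TPM, a log2FC of the sum of -0.35 (interval -0.38 to -0.31). Of 21 with a log2FC, 18 were negative, 4 were below -1, and the median was -0.26. The 3 largest differences in TPM were those of PDE4D (-32.6 TPM, shMBD2 minus shNC), PDE3A (-28.1 TPM) and PDE8A (-27.0 TPM), all of them among the abundant members.

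Within the phosphodiesterases, the dual enzymes, which break down both cyclic AMP and cyclic GMP, stood at 2281 counts in shMBD2 and 3886 in shNC, a log2FC of the sum of -0.78 (interval -0.85 to -0.70). The calcium- and calmodulin-stimulated PDE1 family contributed PDE1C, which had 115 counts in shMBD2 and 481 in shNC, or 2.27 and 9.75 TPM. This was 23.8% (interval 19.2% to 29.2%) of its shNC level, a log2FC of -2.07. PDE1A had 4 and 33 counts, or 0.143 and 1.21 TPM, a log2FC of -2.90 with a wide interval of -5.01 to -1.56. Both detected PDE1 genes were therefore lower in shMBD2. The difference between their log2FC, 0.98 (interval -0.55 to 2.97), could not be told from 0 with so few PDE1A reads. Differences between 2 members are those of their log2FC, not of their levels. They were computed from raw counts without the prior of 0.5 counts that each log2FC holds. With few reads they therefore depart from the difference of the log2FC printed. PDE1C made up 96.6% (exact binomial interval 91.6% to 99.1%) of PDE1 counts in shMBD2 and 93.6% (91.1% to 95.5%) in shNC, so the family's level was almost that of PDE1C. As PDE1B had no reads, PDE1C was the main calmodulin-regulated phosphodiesterase of these cells, yet it took only 0.528% of all phosphodiesterase TPM in shMBD2 and 1.79% in shNC.

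PDE1C lies on chromosome 7, minus strand, at 31790793 to 32338941, and ADCY5 on chromosome 3, minus strand, at 123001143 to 123168605, both as deposited. These positions differ from those of GENCODE 29 on GRCh38, 31751179 to 32299329 for PDE1C and 123282296 to 123449758 for ADCY5, and the deposited tables name no build. Because the targeted protein binds methylated CpG sites, promoter windows of the 2 genes and of PDE1A are shown with every CpG in capitals. Each is 300 bases of RefSeq on GRCh38.p14, 250 before and 50 after an annotated start, printed 5′ to 3′ on the gene's own minus strand, and is the window with the most CpG sites among those of its gene. The PDE1C window is chr7:32070813-32071112, with 36 CpG sites, the ADCY5 window chr3:123449041-123449340, with 33, and the PDE1A window chr2:182522612-182522911, with 6.
PDE1C: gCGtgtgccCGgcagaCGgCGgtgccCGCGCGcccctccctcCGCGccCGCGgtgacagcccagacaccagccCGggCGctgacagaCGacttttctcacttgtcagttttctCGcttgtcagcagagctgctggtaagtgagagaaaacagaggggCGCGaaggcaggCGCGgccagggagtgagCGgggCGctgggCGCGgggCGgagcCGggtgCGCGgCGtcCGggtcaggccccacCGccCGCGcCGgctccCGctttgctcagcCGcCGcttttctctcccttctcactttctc
ADCY5: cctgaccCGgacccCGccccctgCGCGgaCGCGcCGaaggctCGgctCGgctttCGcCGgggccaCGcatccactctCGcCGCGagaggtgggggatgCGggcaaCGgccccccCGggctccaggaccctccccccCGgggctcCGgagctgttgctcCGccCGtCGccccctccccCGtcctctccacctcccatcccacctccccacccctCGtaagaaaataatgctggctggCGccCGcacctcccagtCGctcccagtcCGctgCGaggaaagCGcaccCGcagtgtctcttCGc
PDE1A: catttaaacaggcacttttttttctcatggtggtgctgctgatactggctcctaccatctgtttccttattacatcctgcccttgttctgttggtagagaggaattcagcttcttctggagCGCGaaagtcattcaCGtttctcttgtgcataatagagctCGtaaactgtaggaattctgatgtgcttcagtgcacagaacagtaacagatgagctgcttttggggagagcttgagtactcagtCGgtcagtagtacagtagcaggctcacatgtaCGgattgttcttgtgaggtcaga

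These windows show that the members below -1 did not share a CpG content. The windows of PDE1C ranged from 7 to 36 CpG sites over 6 annotated starts, and those of PDE1A from 0 to 6 over 7 starts. By the richest window of each gene, 85.2% of the 27305 genes in the promoter table had fewer CpG sites than PDE1C, 80.2% had fewer than ADCY5, 88.3% fewer than PDE5A, 32.5% fewer than PDE1A and 17.7% fewer than PDE6C. The richest window had a median of 32 CpG sites over the 33 members in the table and of 16 over all genes, but many members have several starts, and over all their 94 windows the median was 12, beside 14 over all 35116 windows. Methylation was not measured in these libraries.

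PDE3A, a cyclic GMP-inhibited enzyme known as the target of cilostazol and milrinone, was the most abundant dual phosphodiesterase. It had 1427 counts in shMBD2 and 2577 in shNC, or 32.9 and 61.0 TPM, which was 55.0% (interval 51.6% to 58.7%) of the shNC level and a log2FC of -0.86. Its paralog PDE3B, which acts in insulin signaling in fat and liver, had 207 and 214 counts and a log2FC of -0.06 (interval -0.34 to 0.23). The log2FC of PDE3A minus that of PDE3B was -0.80 (interval of the difference -1.10 to -0.51). The log2FC of PDE1C in turn lay below that of PDE3A, with a difference of -1.21 (-1.53 to -0.90). PDE10A, an enzyme best known from striatal neurons, had 431 and 513 counts and a log2FC of -0.26 (-0.45 to -0.07), but LINC00473 overlaps it on the same strand with 803 and 770 counts. PDE11A, mutated in some adrenal tumors, was higher in shMBD2 with 88 and 62 counts and a log2FC of 0.49 (0.01 to 0.99), an interval that held 0 with libraries scaled by total counts. PDE2A, stimulated by cyclic GMP, had only 9 and 6 counts and a log2FC of 0.54 with 0 inside its interval.

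The cyclic AMP-specific phosphodiesterases held most of the reads of the class, with 11468 counts in shMBD2 and 13435 in shNC over 8 genes, and a log2FC of the sum of -0.24 (interval -0.27 to -0.20). None of the 8 was past 1 or -1. PDE4D, the most abundant phosphodiesterase at 139 and 172 TPM, had 6543 and 7875 counts and a log2FC of -0.28 (-0.32 to -0.23). PDE4B, prominent in immune cells and, like PDE4D, a target of rolipram, went the other way with 1096 and 789 counts, or 42.2 and 31.1 TPM, and a log2FC of 0.47 (0.33 to 0.60). The log2FC of PDE4B was above that of PDE4D by 0.74 (0.60 to 0.88), although PDE4D was the more abundant in both libraries. PDE4B took 14.1% of PDE4 counts in shMBD2 and 8.99% in shNC. The summed level of the leukocyte markers was 4.58 TPM in shMBD2 and 1.99 TPM in shNC, and its part in the PDE4B values was not tested. PDE4A had 103 and 107 counts, and PDE4C 8 in each library. The opposite-strand gene CDC37 overlaps PDE4A with 1561 and 1126 counts.

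The rolipram-insensitive cyclic AMP enzymes were each lower in shMBD2 or near their shNC level. PDE8A, a high-affinity enzyme, had 2350 and 2993 counts, or 88.1 and 115 TPM, and a log2FC of -0.36 (interval -0.44 to -0.28). PDE8B, known from the adrenal and thyroid glands, had 216 and 322 counts and a log2FC of -0.58 (-0.84 to -0.33), and the opposite-strand gene WDR41 overlaps it with 874 and 974 counts. The log2FC of the PDE8 pair did not differ beyond counting error (0.23, -0.04 to 0.49). PDE7A, which is expressed in T cells among others, had 570 and 752 counts and a log2FC of -0.41 (-0.57 to -0.25). PDE7B had 582 and 589 counts and a log2FC of -0.03, and the log2FC of PDE7A differed from it by -0.38 (-0.62 to -0.15). The opposite-strand gene MTFR1 overlaps PDE7A with 814 and 862 counts.

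The cyclic GMP-specific phosphodiesterases were scarce, with 179 counts in shMBD2 and 300 in shNC over 5 genes, and a log2FC of the sum of -0.75 (interval -1.03 to -0.48). PDE5A, the target of sildenafil, had 82 and 176 counts, or 46.5% of its shNC level, and a log2FC of -1.11 (-1.51 to -0.72). The opposite-strand gene RP11-33B1.1 overlaps PDE5A with 90 and 99 counts, and whether counting used the strand is not given in the sources used here. PDE9A, the enzyme with the highest affinity for cyclic GMP, had 84 and 94 counts and a log2FC of -0.17, with 0 inside its interval. The photoreceptor subunits had few reads: PDE6C of cones had 7 and 21 counts, a log2FC of -1.53 (-3.07 to -0.31), and PDE6A of rods 6 and 9 counts. Members named PDE6 that are not catalytic are given apart here but were counted in the phosphodiesterase class. PDE6D made up 10.2% of the class TPM in shMBD2 and 9.69% in shNC. The prenyl-binding protein PDE6D, which carries lipid-modified proteins between membranes and is not confined to the eye, had 294 and 346 counts and a log2FC of -0.24 (-0.47 to -0.02), and the inhibitory subunit PDE6G had 10 and 12 counts.

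**Figure D3:**
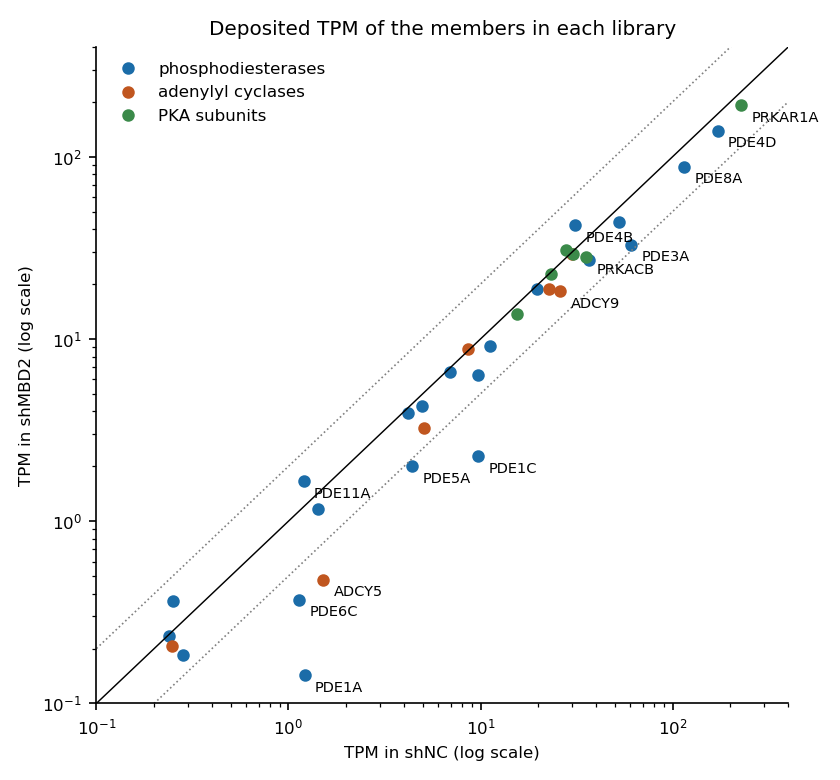
Deposited TPM of each member in shNC (x axis, log scale) and shMBD2 (y axis, log scale), for members above 0 in both libraries, colored by class. The solid line marks equal levels and the dotted lines a log2 difference of 1, and PDE1C, PDE5A, PDE1A, PDE6C and ADCY5 lie below the lower dotted line.

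The adenylyl cyclases summed to 2911 counts in shMBD2 and 3502 in shNC, or 78.9 and 94.2 TPM, a log2FC of the sum of -0.28 (interval -0.35 to -0.20). Of 7 with a log2FC, 6 were negative and 4 had an interval wholly below 0, and the median was -0.25. ADCY5, the cyclase of striatum and heart that calcium inhibits, had 20 counts in shMBD2 and 62 in shNC, or 0.478 and 1.52 TPM. This was 32.6% (interval 18.3% to 53.8%) of its shNC level, a log2FC of -1.62, and it was the only cyclase past -1. ADCY6, its closest paralog and also inhibited by calcium, had 692 and 819 counts and a log2FC of -0.25 (-0.40 to -0.10). The log2FC of ADCY5 minus that of ADCY6 was -1.39 (-2.21 to -0.62). ADCY5 held 2.81% (exact binomial interval 1.72% to 4.31%) of the counts of the pair in shMBD2 and 7.04% (5.44% to 8.93%) in shNC. At this share, ADCY5 made up 0.607% of all cyclase TPM in shMBD2 and 1.62% in shNC.

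The other cyclases carried nearly all of the class. ADCY3, known from olfactory neurons and primary cilia and the most abundant cyclase, had 843 and 842 counts, or 29.2 and 29.9 TPM, and a log2FC of -0.01. The opposite-strand gene CENPO overlaps ADCY3 with 555 and 527 counts. ADCY9, the membrane-bound cyclase least sensitive to forskolin, had 805 and 1119 counts, or 18.2 and 26.0 TPM, and a log2FC of -0.48 (interval -0.62 to -0.35). Its difference of -7.77 TPM was the largest of the class, and its log2FC differed from that of ADCY6 by -0.23 (-0.43 to -0.03). ADCY1, a calmodulin-stimulated cyclase best known from neurons, had 233 and 353 counts and a log2FC of -0.61 (-0.85 to -0.37). ADCY7, which G protein beta-gamma subunits stimulate, was the only cyclase with a positive log2FC, 0.06 at 312 and 297 counts, with 0 inside its interval. The opposite-strand gene BRD7 overlaps ADCY7 with 1859 and 1802 counts. The bicarbonate-sensitive soluble cyclase ADCY10 had 6 and 7 counts.

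None of the 6 PKA subunits was past 1 or -1. They summed to 7641 counts in shMBD2 and 8487 in shNC, or 316.1 and 358.8 TPM, a log2FC of the sum of -0.16 (interval -0.21 to -0.12), and the median was -0.09. PRKAR1A, the type I regulatory subunit that is mutated in Carney complex, was the most abundant of all 40 members at 192 and 226 TPM. It had 4671 and 5368 counts and a log2FC of -0.21 (-0.27 to -0.15), and it made up most of the class difference. The other regulatory subunits were near their shNC level, with 330 and 333 counts of PRKAR1B, 1079 and 1087 of PRKAR2A, which anchoring proteins bind, and 293 and 325 of PRKAR2B. The catalytic subunits diverged: PRKACA had 545 and 485 counts and a log2FC of 0.16 (-0.02 to 0.34), and PRKACB had 723 and 889 counts and a log2FC of -0.31 (-0.45 to -0.16). The log2FC of PRKACA was above that of PRKACB by 0.47 (0.24 to 0.70). PRKACA supplied 43.0% of catalytic subunit counts in shMBD2 and 35.3% in shNC. By TPM, which scales by gene length, PRKACA supplied 52.3% in shMBD2 and 44.2% in shNC. The ratio of regulatory to catalytic TPM was 4.38 in shMBD2 and 4.66 in shNC.

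Across the 14 pairs of related members compared, the interval of the difference left out 0 for 10 and held it for 4, which were PDE1C with PDE1A, PDE8A with PDE8B, PRKAR1A with PRKAR1B and PRKAR2A with PRKAR2B. The 14 pairs use PDE1C 3 times and ADCY5 2 times, and no share for pairs of other genes was computed, so nothing is read from this count. These differences do not depend on how the libraries were scaled.

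The CREB element, the palindrome TGACGTCA that reads alike on both strands and through which cyclic AMP acts on transcription, was searched in the RefSeq promoter windows of the members. It was found in 4 of 94 member windows, or 4.26%, against 1.85% of all windows. The windows of PRKAR1A that hold it overlap and share the same element. By gene, 3 of the 33 members in the promoter table held it, against 2.25% of all genes. The 30 bases around it are shown for these members, all on the plus strand of GRCh38.p14 and with the element in capitals, at chr19:10416759-10416788 for PDE4A, chr6:135851535-135851564 for PDE7B and chr17:68512370-68512399 for PRKAR1A.
PDE4A: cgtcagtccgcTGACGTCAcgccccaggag
PDE7B: actaaacccttTGACGTCActcttgaaatg
PRKAR1A: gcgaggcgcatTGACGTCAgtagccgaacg
The log2FC of the 3 genes were -0.06 for PDE4A, -0.03 for PDE7B and -0.21 for PRKAR1A, and none of the 5 members below -1 held the element in these windows.

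The rest of cyclic nucleotide signaling was read from 11 lists of 100 genes, 80 of which had at least 10 counts. Here 46 genes were negative and 34 positive with a median of -0.02, 5 genes (6.25%) lay below -1 and 6 (7.5%) above 1, shares near those of all genes. Upstream of the cyclases, none of 7 G protein alpha subunits was past 1 or -1 (median -0.01), and GNAS, which encodes the stimulatory subunit, had 6737 and 6711 counts. Of 12 Gs-coupled receptors (median 0.08), ADORA2B, an adenosine receptor and the most abundant of them by TPM, had 371 and 437 counts and a log2FC of -0.24 (interval -0.45 to -0.04). The receptors past 1 or -1 all had few reads. Adenosine receptor ADORA2A had 5 and 20 counts, a log2FC of -1.91 (-3.78 to -0.55), and VIPR2 for vasoactive intestinal peptide 2 and 12 counts, a ratio of 0.166 (0.018 to 0.744). The prostacyclin receptor PTGIR had 12 and 0 counts, and the interval of its ratio began at 2.76.

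On the cyclic GMP side, 4 of 8 guanylyl cyclases had a log2FC (median -0.07, none past 1 or -1), the most abundant by TPM being the natriuretic peptide receptor NPR2 with 117 and 99 counts. The soluble guanylyl cyclase subunit GUCY1A2, named after its values were seen, had 116 and 204 counts and a log2FC of -0.82 (interval -1.16 to -0.49). Both cyclic GMP-dependent kinases were below -1 (median -1.19): PRKG2 had 19 and 45 counts, a log2FC of -1.23 (interval -2.11 to -0.45), and PRKG1 7 and 16 counts, a log2FC of -1.15 with 0 inside its interval. Among PKA inhibitors and kin (4 genes, median 0.17), the inhibitor peptide gene PKIB had 86 and 37 counts and a log2FC whose interval ran from 0.64 to 1.81, while PKIG, the most abundant by TPM, had 262 and 240 counts. None of 12 anchoring proteins was past 1 or -1 (median 0.02), and AKAP12, which holds PKA and PDE4D near the membrane, had 14597 and 11702 counts, a log2FC of 0.31 (0.27 to 0.35). Of the 8 other effectors (median -0.09), the pacemaker channel HCN2 was the most abundant by TPM with 551 and 593 counts, HCN4 had 26 and 10 counts, a log2FC of 1.33 (0.27 to 2.59), and the photoreceptor channel subunit CNGB1 10 and 1 counts, a ratio of 9.94 (1.41 to 431.3).

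Downstream, none of 8 genes of the CREB family and its coactivators was past 1 or -1 (median -0.03), and ATF1, the most abundant by TPM (42.7 and 54.3), had 533 and 660 counts and a log2FC of -0.32 (interval -0.48 to -0.15). The 14 CREB target genes had a median of -0.30, with 10 negative and 4 positive. Their interval lay wholly below 0 for 5 and wholly above 0 for 3, where 18.4% and 19.7% of all genes did. SIK1, a kinase gene induced by cyclic AMP, had 5108 and 6545 counts and a log2FC of -0.37 (-0.42 to -0.31). EGR1 had 46 and 21 counts and a log2FC of 1.10 (0.35 to 1.94). FOSB had 4 and 11 counts, a log2FC of -1.36 with 0 inside its interval. For 6 genes of cyclic nucleotide efflux and ductal secretion the median was 0.01 and none was past 1 or -1, and the anion exchanger SLC4A2 was the most abundant by TPM with 3035 and 2850 counts. The 3 calmodulin genes, whose protein stimulates PDE1 and ADCY1, had a median of -0.06, and CALM2 had 8793 and 9097 counts.

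**Figure D4:**
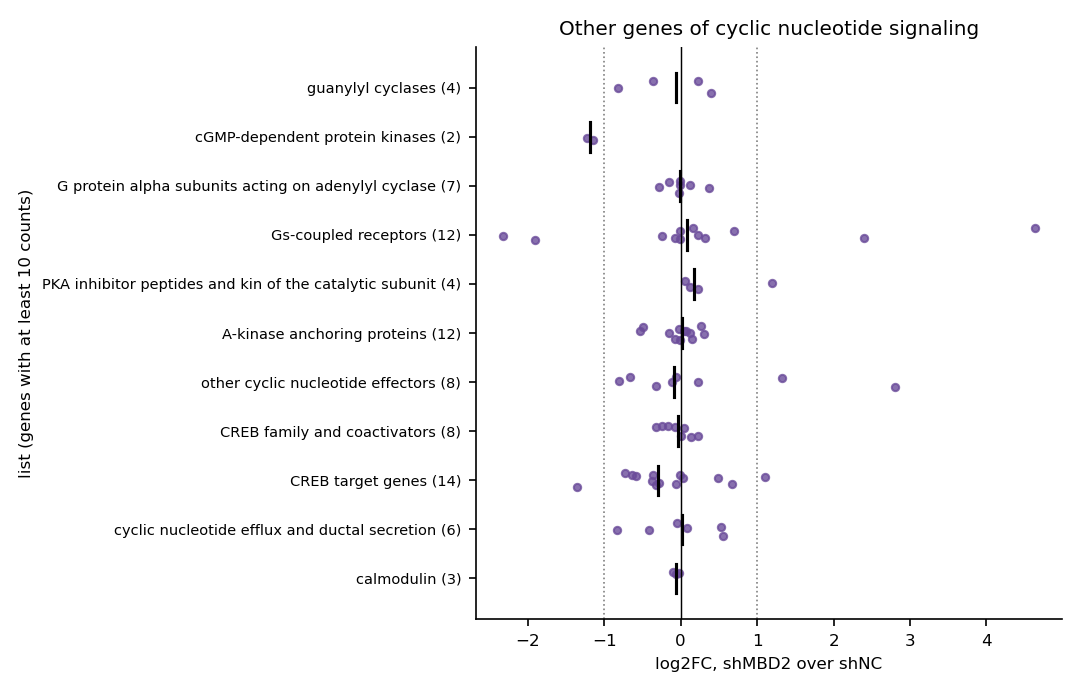
Log2FC of shMBD2 over shNC (x axis) for the 80 genes of the 11 other lists with at least 10 counts, 1 row per list with its number of genes in brackets. Points are genes (spread vertically for legibility), black bars list medians and dotted lines -1 and 1, and both cyclic GMP-dependent kinases lie left of -1.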

How the data were processed

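RNA of 2 libraries was analyzed, 1 per group. The authors deposited whole-number read counts per gene and, separately, TPM per gene. The submitters' processing notes list fastp, HISAT2 2.1.0, featureCounts, DESeq 1.18.1 and GRCh38.p13, without roles. None of the 40 members has its GENCODE 29 start and end in the deposited coordinates, so these were used only as printed and to find overlaps. Both tables hold 63723 lines, of which 46 name no gene and were dropped. Rows that repeated the symbol and values of another identifier were dropped, and the deposited TPM then summed to 1000000. Symbols whose identifiers held different values kept a row for each.

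Counts were scaled with TMM factors (edgeR 4.0.16, R 4.3.3). Log2FC used a prior of 0.5 counts for genes with at least 10 counts over both libraries, and Clopper-Pearson intervals came from scipy 1.17.1. Scripts were tested on simulated data. Log2 ratios of TPM were shifted by -0.03 against TMM-scaled counts for every gene.

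The genes named are all members, MBD2, in each list the genes past 1 or -1 and the most abundant one, markers, and genes overlapping a member, plus GUCY1A2, chosen after its values were seen; 1 gene of the lists is not reported here. Of the members, 9 overlap a gene with at least 10 counts and 0.1 times their own, which besides those given are PDE6D and PRKAR1B. Members and lists were chosen with earlier results of these data known. Alternatives were DESeq2 1.42.0 size factors, total counts, upper-quartile factors, TPM plus 0.1 or 1, priors of 0.1 and 2 counts, and minimums of 1 and 100 counts. Promoter sequences are from RefSeq (GRCh38.p14), where 33 of 40 members were found. Other experiments of the study were not analysed here.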

Additional observations from a re-analysis of the deposited data

How the results depend on the processing

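The log2FC of 34 members were recomputed under 7 settings of scaling, prior count and TPM. All kept their direction except ADCY3 and PDE4C, both near 0, with DESeq2 size factors. With log2 of TPM plus 1, which compresses low levels, PDE1C moved to -1.72, ADCY5 to -0.77, PDE1A to -0.95, PDE6C to -0.64 and PDE5A to -0.85, and the number of members below -1 went from 5 to 1, while the share of all genes there went to 1.94%. A minimum of 1 count gave 7 members below -1 (15.8% of genes) and moved the median of the cyclases from -0.25 to -0.48. A minimum of 100 counts left 2 members below -1 (1.06% of genes), and leaving out PDE1C and ADCY5, chosen after seeing the data, left 3. With total counts, 1 member had an interval wholly above 0, as that of PDE11A then held 0. The 5 lower and 6 higher genes of the other lists became 0 and 1 with TPM plus 1, 9 and 10 with a minimum of 1 count, and 0 and 1 with a minimum of 100, so those calls rest on genes with few reads. No paired analysis was possible because each group has 1 library. For the same reason no replicate could be left out, and the intervals hold no variation between cultures.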
